A study of Homo sapiens with 18 samples.

Results

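The prostate kallikreins KLK2, KLK3, KLK4 and KLK15 were followed in LNCaP cells, a human prostate adenocarcinoma line that grows in response to androgen. They were found by gene symbol in the table of raw counts, in which each of the 4 symbols named 1 gene, and make up 4 of its 60649 genes. The cells had been transfected with a pool of siRNAs against UPF1, against RCOR1, or with a non-targeting control pool, and then kept in androgen-deprived medium, a condition that all groups share. After 48 h they received the synthetic androgen R1881 at 5 nM, or ethanol as vehicle, for another 48 h. The 18 libraries form 6 groups of 3 biological replicates: UPF1 siRNA with R1881, UPF1 siRNA with vehicle, RCOR1 siRNA with R1881, RCOR1 siRNA with vehicle, control siRNA with R1881 and control siRNA with vehicle. UPF1 is an RNA helicase of nonsense-mediated decay, and RCOR1 (CoREST) holds the histone demethylase KDM1A in a corepressor complex. Each gene was targeted with 1 siRNA pool in 1 cell line, so no value covers the spread between other siRNAs or lines. RNA was total RNA depleted of ribosomal RNA.

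Kallikreins are secreted serine proteases whose genes stand side by side on human chromosome 19. KLK3 encodes prostate-specific antigen, which liquefies the seminal clot by cutting semenogelins, and KLK2 encodes a trypsin-like protease that can convert the KLK3 precursor to its active form in vitro. KLK4 encodes a protease of prostate and of developing tooth enamel, and KLK15 is a less abundant member of the same family. In luminal prostate cells androgen acts on genes through DNA elements made of paired half-sites, and KLK3 and KLK2 are classic androgen-induced genes.

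The promoters are shown because KLK3 and KLK2 share a motif in the same place that KLK4 and KLK15 do not share, while all 4 genes answered R1881. Each runs from 250 bases before to 50 bases after the outermost start in RefSeq (GRCh38.p14), read 5′ to 3′ on the strand of the gene, and capitals mark the best match to the androgen response element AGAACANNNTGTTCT, whose 12 fixed bases were scored on both strands (the motif reads the same on each). KLK3 is at chr19:50854665-50854964 (plus strand), KLK2 at chr19:50873189-50873488 (plus), KLK4 at chr19:50911346-50911645 (minus) and KLK15 at chr19:50833525-50833824 (minus).
KLK3: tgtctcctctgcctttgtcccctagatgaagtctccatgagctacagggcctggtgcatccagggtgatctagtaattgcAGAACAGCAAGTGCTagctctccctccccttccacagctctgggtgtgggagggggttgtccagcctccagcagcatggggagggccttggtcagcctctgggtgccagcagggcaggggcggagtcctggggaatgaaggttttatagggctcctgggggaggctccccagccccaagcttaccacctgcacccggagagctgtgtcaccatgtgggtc
KLK2: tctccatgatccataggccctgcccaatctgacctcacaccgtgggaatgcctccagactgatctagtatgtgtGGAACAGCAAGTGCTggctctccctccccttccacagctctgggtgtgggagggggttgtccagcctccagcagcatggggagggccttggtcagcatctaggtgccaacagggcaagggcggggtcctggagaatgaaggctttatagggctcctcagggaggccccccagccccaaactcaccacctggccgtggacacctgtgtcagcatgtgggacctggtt
KLK4: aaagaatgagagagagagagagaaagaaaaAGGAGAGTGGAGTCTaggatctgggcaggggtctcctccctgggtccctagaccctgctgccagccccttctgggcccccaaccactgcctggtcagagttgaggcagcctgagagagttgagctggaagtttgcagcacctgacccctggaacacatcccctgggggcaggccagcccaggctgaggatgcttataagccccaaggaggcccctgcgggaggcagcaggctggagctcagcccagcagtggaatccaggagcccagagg
KLK15: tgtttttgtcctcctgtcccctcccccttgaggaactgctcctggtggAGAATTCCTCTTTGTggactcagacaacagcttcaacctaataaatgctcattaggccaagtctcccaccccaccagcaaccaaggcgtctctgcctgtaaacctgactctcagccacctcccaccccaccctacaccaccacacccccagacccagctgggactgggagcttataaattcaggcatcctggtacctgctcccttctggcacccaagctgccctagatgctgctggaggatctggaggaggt

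The capitals in KLK3 match 10 of the 12 bases and lie at -170 to -156 from the start. These letters are those of the proximal androgen response element long described for KLK3. In KLK2 the best match has 9 of 12 bases at -176 to -162. Counting from 1 at the first capital, KLK2 differs from KLK3 by A1G, and both depart from the motif at T10A and T13G. A match of at least 10 bases is held by 1.41% of the 35116 promoters in the table, and one of at least 9 bases by 10.8%. KLK4 and KLK15 reach 7 of 12, as do 89.2% of all promoters, and the second start that the table lists for each reaches 6 and 7. The half-site AGAACA, on either strand, occurs in KLK3 and in 14.8% of all promoters, and not in these windows of the other 3 genes. Over 287 aligned bases the KLK3 and KLK2 promoters are 87.5% identical. A match describes letters only, and binding was not measured here. Only 300-base windows around the listed starts were scanned, and sequence farther from them was not examined.

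KLK3 (ENSG00000142515.15) spans 50854915 to 50860764 and KLK2 (ENSG00000167751.13) 50861568 to 50880567 on the plus strand of chromosome 19 (GRCh38, GENCODE 29). KLK15 (ENSG00000174562.13) spans 50825289 to 50837213 and KLK4 (ENSG00000167749.11) 50906352 to 50910738 on the minus strand. The GENCODE spans and the RefSeq starts differ for KLK2, KLK4 and KLK15. The KLK2 and KLK15 windows shown lie inside these spans, and sequence at the outer GENCODE starts of both genes was not scanned. The KLK4 window shown lies outside its span. The principal transcripts of KLK3 and KLK2 are 83.1% identical over 1435 aligned bases. Of the 50-base windows of the KLK3 transcript, 11 of 1414 (0.778%) also occur in that of KLK2, and no other pair of members shares one; the read length is not given in the sources used here, and shorter reads could be shared more often. KLK15 overlaps an antisense gene on the plus strand, AC011523.2, which had 6 counts over the 18 libraries.

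Library totals lay between 10299607 and 17338235 counts. UPF1 stood at 26.3 ± 0.674 CPM (library-scaled counts, with TMM factors; SD, n = 3) with its siRNA and 149 ± 13.1 CPM with control siRNA in R1881, and at 22.8 ± 2.79 and 134 ± 17.5 CPM in vehicle. RCOR1 stood at 12.5 ± 0.296 with its siRNA and 79.7 ± 9.96 CPM with control siRNA in R1881, and at 12.8 ± 3.44 and 99.6 ± 8.82 CPM in vehicle. With RCOR1 siRNA in R1881, UPF1 was also lower than with control siRNA, at 117 ± 9.77 CPM (edgeR adjusted p below 0.05). In vehicle UPF1 stood at 108 ± 7.62 CPM with RCOR1 siRNA and did not pass that threshold. RCOR1 with UPF1 siRNA stood at 88.7 ± 2.69 CPM in R1881 and 85.2 ± 2.77 CPM in vehicle, and passed it in neither. The luminal prostate markers were all expressed (9 of 9, 6170 to 10500 CPM summed per library). Summed markers of other types stayed between 0.161 CPM (blood cells) and 28.5 CPM (neuroendocrine cells), and TP63, HBB, CDH5 and CHGA had 0 counts in every library. Some of these sums moved with the groups: the basal sum was 5.87 to 7.14 CPM in R1881 and 0.794 to 0.987 CPM in vehicle with UPF1 siRNA, with KRT5 at 1 count in all libraries, and the endothelial sum was 25.3 to 26.6 CPM with UPF1 siRNA and 10.1 to 14 CPM with control siRNA in vehicle, with PECAM1 at 7 counts in all. Within each group 1 library stood apart from a closer pair: with UPF1 siRNA and R1881, replicates 1 and 2 differed from each other by a chi-square of 5.02 per degree of freedom over genes, and from replicate 3 by 46 and 30.2. The closest pair was replicates 2 and 3 of control siRNA in R1881, at 2.98, and these differed from replicate 1 by 44.6 and 39.9. In such bulk RNA, fewer cells that express a gene and less RNA per cell cannot be told apart.

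KLK3 was the most abundant kallikrein in every library and the highest per length in every group. Per kilobase of the principal transcript (RPKM), KLK3 reached 2330 ± 172 in R1881 with UPF1 siRNA, 1760 ± 171 with RCOR1 siRNA and 2470 ± 230 with control siRNA. In vehicle it stood at 157 ± 3.89, 258 ± 17.7 and 203 ± 32.4 RPKM in the same order of siRNAs. KLK4 and KLK2 came next. In R1881 KLK2 and KLK4 on principal transcripts differed by no more than their spread with UPF1 siRNA (152 ± 12.2 and 140 ± 12.8 RPKM) and with control siRNA (135 ± 9.65 and 139 ± 15 RPKM). Their order there depends on the length used: per kilobase of all annotated exons KLK2 was below KLK4, at 71.8 ± 5.73 and 97.6 ± 9.04 RPKM with UPF1 siRNA and 63.7 ± 4.57 and 96.3 ± 10.4 RPKM with control siRNA. With RCOR1 siRNA in R1881, KLK2 was below KLK4, at 95.1 ± 8.49 and 186 ± 9.3 RPKM. In vehicle KLK2 lay below KLK4 with every siRNA, at 3.17 ± 0.345 and 26.1 ± 0.0429 RPKM with UPF1 siRNA, 6.75 ± 0.308 and 75.4 ± 9.22 with RCOR1 siRNA, and 4.54 ± 0.382 and 34.8 ± 5.66 with control siRNA. KLK15 was lowest in each group, between 0.861 ± 0.203 and 3.08 ± 0.275 RPKM, and rested on 8 to 50 counts per library. The 4 genes together took 0.395 ± 0.0407% of all counts with UPF1 siRNA and R1881, 0.297 ± 0.0369% with RCOR1 siRNA and R1881, and 0.379 ± 0.0472% with control siRNA and R1881. In vehicle those shares were 0.0286 ± 0.00145%, 0.0546 ± 0.00551% and 0.038 ± 0.00631%.

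**Figure D1:**
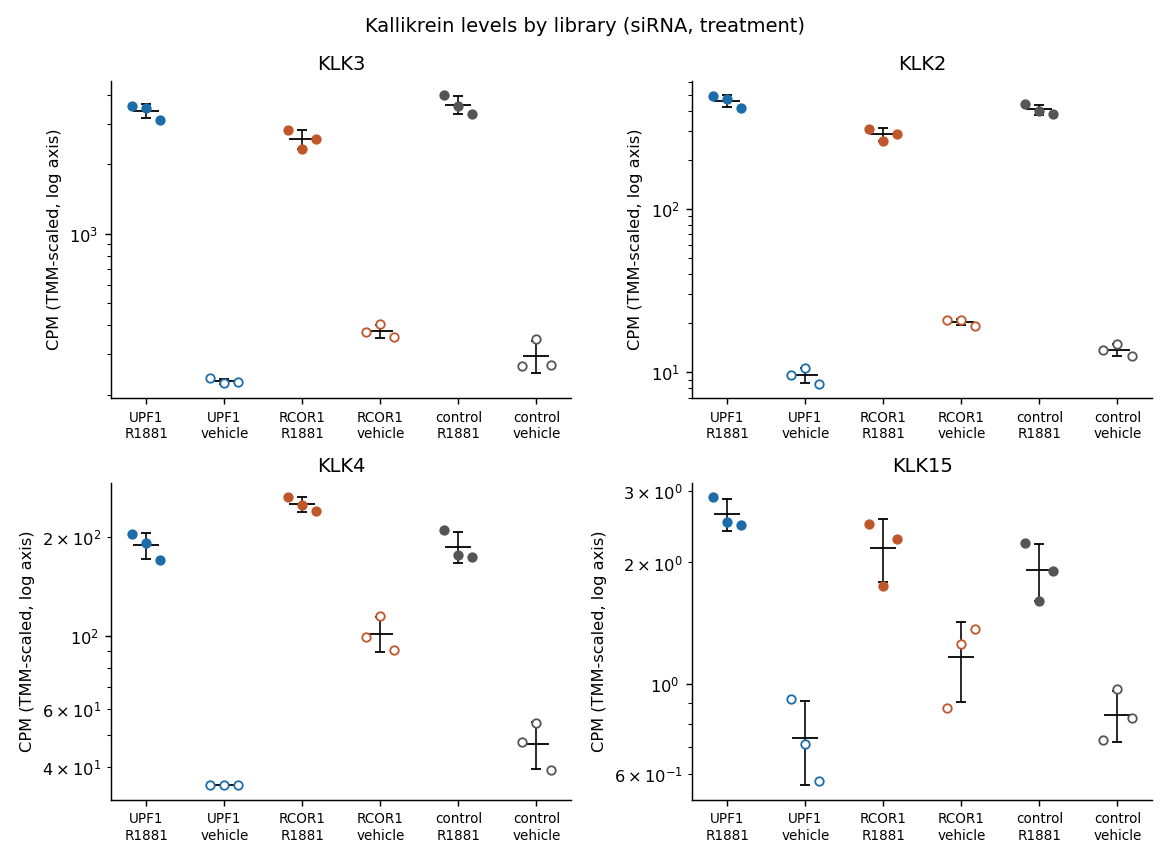
CPM of each kallikrein in every library (points, log axes), with filled points for R1881 and open points for vehicle and a bar for the mean ± SD of 3 libraries. In all 4 panels each R1881 group lies above its vehicle group, and KLK4 in vehicle is highest with RCOR1 siRNA.

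R1881 raised all 4 kallikreins with each siRNA, and did so in the order KLK2, KLK3, KLK4, KLK15. KLK2 changed most, 48-fold with UPF1 siRNA, 14.1-fold with RCOR1 siRNA and 29.7-fold with control siRNA. The 4 of 4 members called higher compare with 41.6% of the 15390 tested genes called in either direction with UPF1 siRNA, 31.2% with RCOR1 siRNA and 37.7% with control siRNA. Genes called higher alone were 21.6%, 16.3% and 20.1%. A gene is called when its adjusted p, from edgeR's quasi-likelihood test with Benjamini-Hochberg adjustment over all tested genes, is below 0.05. Over the 4 members the median log2 fold change was 3.16, 2.03 and 2.8 for UPF1, RCOR1 and control siRNA, and that of all tested genes was -0.01, 0.02 and 0.02.

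With UPF1 siRNA, KLK2 had 489, 471 and 418 CPM in the R1881 libraries and 9.61, 10.6 and 8.52 CPM in the vehicle libraries. RCOR1 siRNA libraries had 311, 260 and 290 CPM in R1881 and 20.8, 21 and 19.3 CPM in vehicle. With control siRNA the KLK2 levels were 439, 400 and 382 CPM in R1881 and 13.6, 14.9 and 12.6 CPM in vehicle. R1881 and vehicle never overlapped, and RCOR1 siRNA libraries were the lowest in R1881 and the highest in vehicle. As log2 fold changes, KLK2 rose by 5.58 ± 0.116 (SE, adjusted p = 1.1e-14) with UPF1 siRNA, 3.82 ± 0.106 (2.8e-13) with RCOR1 siRNA and 4.89 ± 0.112 (1.8e-14) with control siRNA. It ranked 23, 62 and 45 from the top of the 15390 genes.

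The prostate-specific antigen gene KLK3 stood at 3590, 3510 and 3120 CPM in R1881 with UPF1 siRNA, and at 236, 225 and 228 CPM in vehicle. With RCOR1 siRNA it stood at 2820, 2320 and 2570 CPM in R1881 and 373, 406 and 355 CPM in vehicle. Control siRNA libraries had 3970, 3590 and 3300 CPM in R1881 and 268, 351 and 270 CPM in vehicle. Every RCOR1 siRNA library lay below every control library in R1881 and above every control library in vehicle. KLK3 rose by 3.89 ± 0.118 (adjusted p = 5e-13), 2.77 ± 0.112 (2.1e-11) and 3.61 ± 0.116 (8.7e-13) on the log2 scale with UPF1, RCOR1 and control siRNA, which is 14.8-fold, 6.8-fold and 12.2-fold.

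For KLK4, the R1881 libraries with UPF1 siRNA had 204, 192 and 170 CPM and the vehicle libraries 35.1, 35.2 and 35.1 CPM. RCOR1 siRNA gave 264, 250 and 239 CPM in R1881 and 99.2, 115 and 90.5 CPM in vehicle. Control siRNA gave 210, 176 and 174 CPM in R1881 and 47.6, 54.2 and 39 CPM in vehicle. The RCOR1 siRNA libraries were thus the highest under both treatments, with no overlap with the other siRNAs. KLK4 rose 5.38-fold with UPF1 siRNA (log2 2.43 ± 0.125, adjusted p = 3.1e-10), 2.47-fold with RCOR1 siRNA (1.3 ± 0.119, 3.7e-07) and 3.97-fold with control siRNA (1.99 ± 0.122, 2.3e-09).

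KLK15 was low throughout. With UPF1 siRNA it had 2.9, 2.52 and 2.47 CPM in R1881 and 0.921, 0.711 and 0.577 CPM in vehicle. With RCOR1 siRNA it had 2.49, 1.75 and 2.28 CPM in R1881 and 0.872, 1.26 and 1.37 CPM in vehicle. Control siRNA libraries had 2.23, 1.61 and 1.9 CPM in R1881 and 0.729, 0.971 and 0.825 CPM in vehicle. No R1881 library overlapped a vehicle library of the same siRNA. The log2 rise was 1.82 ± 0.233 (adjusted p = 1.3e-05), 0.92 ± 0.225 (0.0049) and 1.18 ± 0.242 (0.0011) with UPF1, RCOR1 and control siRNA.

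**Figure D2:**
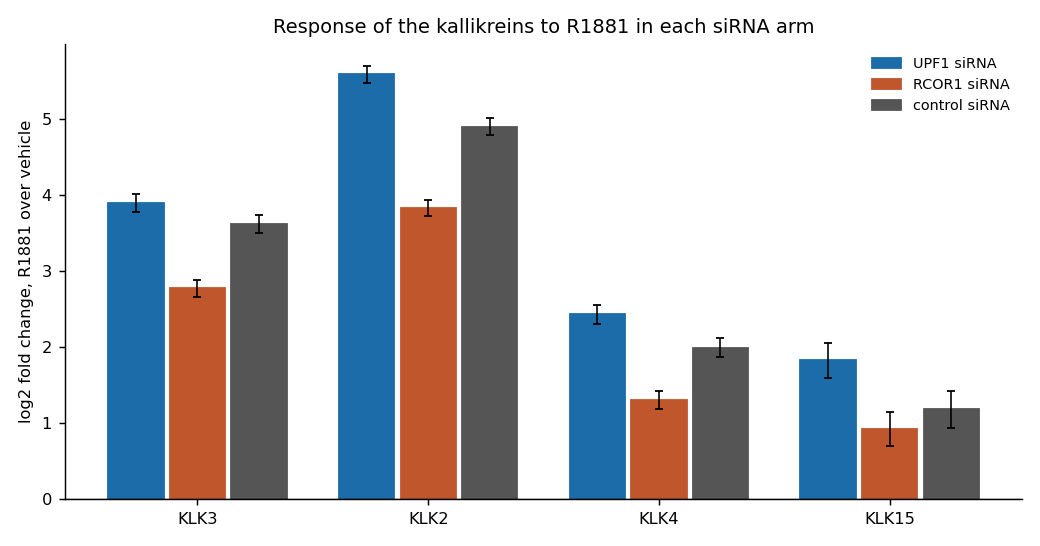
Log2 fold change of each kallikrein, R1881 over vehicle, with UPF1, RCOR1 and control siRNA (bars, ± SE from edgeR). KLK2 ranges from 3.82 to 5.58 and KLK15 from 0.92 to 1.82, and for each gene the bar is lowest with RCOR1 siRNA.

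Members rose by unequal amounts, which ratios between 2 members within a library show without any scaling between libraries. Across the 3 siRNAs, R1881 raised the log2 ratio of KLK2 to KLK3 by 1.34, KLK2 to KLK4 by 2.85, KLK2 to KLK15 by 3.48, KLK3 to KLK4 by 1.51 and KLK3 to KLK15 by 2.14. Each had p = 0.00025 by a two-sided exact permutation test within siRNAs, the smallest its 8000 arrangements allow, and adjusted p = 9e-04 over the 18 ratio tests. KLK4 to KLK15 rose by 0.63 (exact permutation p = 0.00075, adjusted p = 0.0023). KLK2 made up 11.3 ± 0.0778% of the 4 genes' counts in R1881 and 3.48 ± 0.386% in vehicle with UPF1 siRNA, 9.23 ± 0.0996% and 4.07 ± 0.183% with RCOR1 siRNA, and 9.67 ± 0.211% and 3.85 ± 0.29% with control siRNA.

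Without androgen, UPF1 siRNA lowered KLK2, KLK3 and KLK4 moderately. The log2 fold change over control siRNA in vehicle was -0.52 ± 0.105 for KLK2 (adjusted p = 0.0011), -0.37 ± 0.106 for KLK3 (0.013) and -0.42 ± 0.121 for KLK4 (0.013). KLK15 had -0.18 ± 0.279 (0.74). The 3 of 4 members called stand against 34.6% of all tested genes called, and 16% called lower, with medians of -0.39 for the members and 0.03 for all genes. The calls for KLK3 and KLK4 rested on 1 control library: without replicate 2 of control siRNA in vehicle they were -0.23 (adjusted p = 0.083) and -0.31 (0.075).

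In R1881 none of the 4 was called with UPF1 siRNA over control siRNA, where 33.3% of all genes were. DESeq2 likewise called none. At an unadjusted edgeR p 1 of the 4 passed 0.05 (KLK15, 0.038), as did at least the 33.3% of all genes that were called. KLK2 had a log2 fold change of 0.17 (95% interval -0.01 to 0.36, adjusted p = 0.16), KLK3 -0.09 (-0.29 to 0.12, 0.55) and KLK4 0.02 (-0.21 to 0.25, 0.92). KLK15 had 0.46 ± 0.204 (adjusted p = 0.093). The R1881 response of KLK2 was larger with UPF1 siRNA than with control siRNA by a log2 difference of 0.69 ± 0.14 (interaction, adjusted p = 0.015), in a comparison in which 2.72% of all genes were called. For KLK4 the difference was 0.44 ± 0.168 (0.18), for KLK3 0.28 ± 0.149 (0.31) and for KLK15 0.64 ± 0.346 (0.38), none of them called. Without replicate 3 of control siRNA in R1881 the KLK2 difference was 0.64 (adjusted p = 0.082), and without replicates 1 and 2 of UPF1 siRNA in R1881 together it was 0.57 (0.27).

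RCOR1 siRNA raised KLK4 without androgen. In vehicle KLK4 stood at 102 ± 12.6 CPM with RCOR1 siRNA and 46.9 ± 7.66 CPM with control siRNA (SD, n = 3 each), a 2.16-fold rise (log2 1.11 ± 0.12, edgeR adjusted p = 2.8e-05) that ranked 278 among the 15390 genes. KLK2 rose 1.49-fold (0.57 ± 0.101, 0.0016) and KLK3 1.28-fold (0.35 ± 0.105, 0.041), while KLK15 had 0.45 ± 0.258 (0.41). Against 3 of 4 members called higher, 11.5% of all genes were called and 5.31% were called higher. The KLK3 call was lost in 5 of 6 fits that left out 1 library: 0.28 (adjusted p = 0.17), 0.29 (0.17), 0.36 (0.094), 0.3 (0.16) and 0.39 (0.053) without control replicates 1 and 3 and RCOR1 siRNA replicates 1, 2 and 3. It was also lost with DESeq2 (0.35, adjusted p = 0.069), with its size factors in edgeR (0.35, 0.07), with library size alone (0.39, 0.07) and with only these groups in the fit (0.37, 0.14).

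In R1881 the members moved in different directions with RCOR1 siRNA. KLK2 averaged 287 ± 25.8 CPM with RCOR1 siRNA and 407 ± 29.2 CPM with control siRNA, and fell by 0.5 ± 0.0936 on the log2 scale (edgeR adjusted p = 0.0021). KLK3 averaged 2570 ± 251 CPM with RCOR1 siRNA and 3620 ± 337 CPM with control siRNA, and fell by 0.49 ± 0.105 (edgeR adjusted p = 0.0056). KLK4 averaged 251 ± 12.4 CPM with RCOR1 siRNA and 186 ± 20.1 CPM with control siRNA, a rise of 0.43 ± 0.117 (edgeR adjusted p = 0.025). KLK15 had 0.19 ± 0.212 (0.65). Of all genes 12.4% were called, 5.06% higher and 7.33% lower. With library size alone the KLK3 value was -0.41 (adjusted p = 0.053). The KLK4 call was lost without RCOR1 siRNA replicate 1 (0.39, 0.08) or 2 (0.44, 0.068), without control replicate 2 or 3 (0.38, 0.12 each), and with only these groups fitted (0.46, 0.054).

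**Figure D3:**
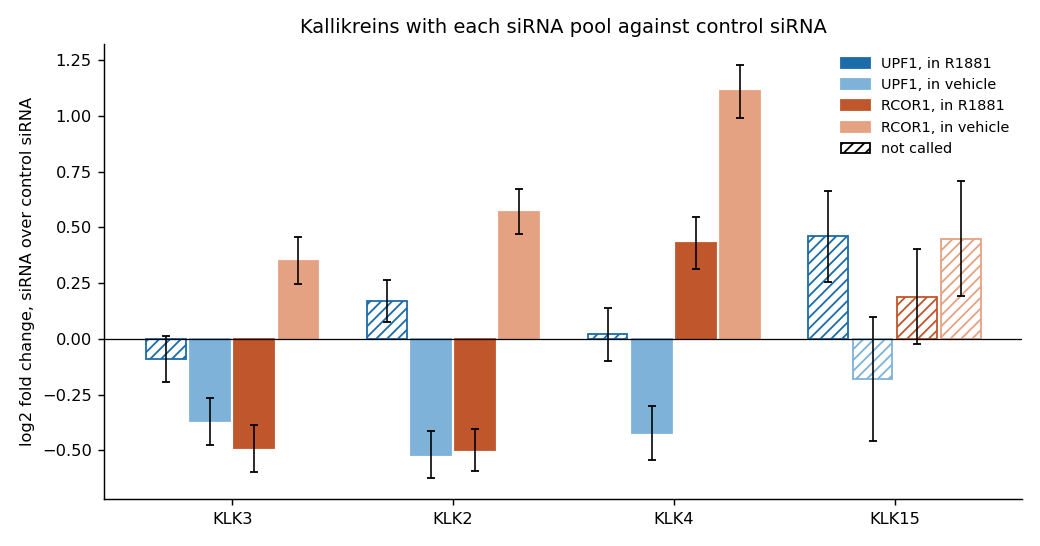
Log2 fold change of each kallikrein with UPF1 or RCOR1 siRNA over control siRNA, in R1881 and in vehicle (bars, ± SE from edgeR; hatched bars were not called). With RCOR1 siRNA, KLK3 and KLK2 are below 0 in R1881 and above 0 in vehicle, whereas KLK4 is above 0 in both, at 0.43 and 1.11.

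The R1881 response was smaller with RCOR1 siRNA than with control siRNA for KLK2, by a log2 difference of -1.08 ± 0.138 (interaction, adjusted p = 0.00099), and for KLK3, by -0.85 ± 0.149 (0.011). Only 0.767% of all genes were called in this comparison, and 0.539% lower. KLK4 had -0.68 ± 0.167 (adjusted p = 0.075) and KLK15 -0.26 ± 0.333 (0.91). KLK2 was called in each of the 12 fits that left out 1 library. The KLK3 call was lost without control replicate 3 in vehicle (-0.78, adjusted p = 0.051), control replicate 1 (-0.75, 0.064) or 2 (-0.84, 0.051) in R1881, or RCOR1 siRNA replicate 2 in R1881 (-0.77, 0.053), with library size alone (-0.79, 0.081) and with only the 4 groups fitted (-0.83, 0.1), while KLK4 was called without control replicate 2 in vehicle (-0.8, 0.035).

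RCOR1 siRNA also changed the proportions of the kallikreins. The ratio of KLK3 to KLK4 counts was 10.7, 9.29 and 10.7 with RCOR1 siRNA and 18.9, 20.4 and 19 with control siRNA in R1881. In vehicle it was 3.75, 3.52 and 3.93 with RCOR1 siRNA and 5.62, 6.46 and 6.92 with control siRNA. The groups did not overlap under either treatment. Over both treatments the log2 ratio fell by 0.84, to 0.557 of control (two-sided exact permutation p = 0.005 within treatments, the smallest that 400 arrangements allow, adjusted p = 0.01). KLK2 to KLK4 fell by 0.74 (exact permutation p = 0.005, adjusted p = 0.01), and KLK2 to KLK3 moved by 0.1 (exact permutation p = 0.11, adjusted p = 0.14). The KLK2 to KLK3 average holds unlike parts, -0.01 in R1881 and 0.21 in vehicle. In vehicle RCOR1 siRNA libraries had 0.0559, 0.0518 and 0.0543 and control libraries 0.0508, 0.0426 and 0.0467. KLK4 to KLK15 rose by 0.47 (exact permutation p = 0.02, adjusted p = 0.036), which joins 0.25 in R1881 and 0.69 in vehicle. That call was lost without control replicate 1 (0.53, 0.06), 2 (0.48, 0.065) or 3 (0.41, 0.083) in vehicle. It was also lost without control replicate 1 (0.46, 0.075) or 3 (0.45, 0.069) in R1881. KLK2 to KLK15 had -0.27 (exact permutation adjusted p = 0.22), with -0.69 in R1881 and 0.14 in vehicle. KLK3 to KLK15 had -0.37 (exact permutation adjusted p = 0.062), with -0.67 in R1881 and -0.07 in vehicle. KLK4 made up 8.1 ± 0.626% of the 4 genes' counts with RCOR1 siRNA and 4.42 ± 0.179% with control siRNA in R1881, and 20.2 ± 0.91% and 13.1 ± 1.2% in vehicle.

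With UPF1 siRNA none of the ratios among KLK2, KLK3 and KLK4 passed the test. KLK3 to KLK4 was 17.6, 18.2 and 18.4 in R1881 and 6.71, 6.4 and 6.49 in vehicle, a log2 difference from control siRNA of -0.03 (exact permutation adjusted p = 0.62). KLK2 to KLK4 differed by 0.02 (exact permutation adjusted p = 0.78) and KLK2 to KLK3 by 0.05 (exact permutation adjusted p = 0.62). The KLK2 to KLK3 average holds opposite parts: 0.26 in R1881, where UPF1 siRNA libraries had 0.136, 0.134 and 0.134 and control libraries 0.111, 0.111 and 0.116, and -0.16 in vehicle, with 0.0409, 0.0472 and 0.0376 against 0.0508, 0.0426 and 0.0467. Relative to KLK15, KLK2 fell by 0.3 with UPF1 siRNA (exact permutation adjusted p = 0.01). Without replicate 1 of control siRNA in vehicle this was -0.25 (0.063). KLK3 fell by 0.35 relative to KLK15 (exact permutation adjusted p = 0.049), an average of -0.54 in R1881 and -0.15 in vehicle. The KLK3 call was lost in 10 of 12 runs that left out 1 library, all but those without replicate 3 of control siRNA or of UPF1 siRNA in vehicle, with values of -0.38 to -0.28 and adjusted p of 0.057 to 0.082. These ratios rest on the low KLK15 counts.

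**Figure D4:**
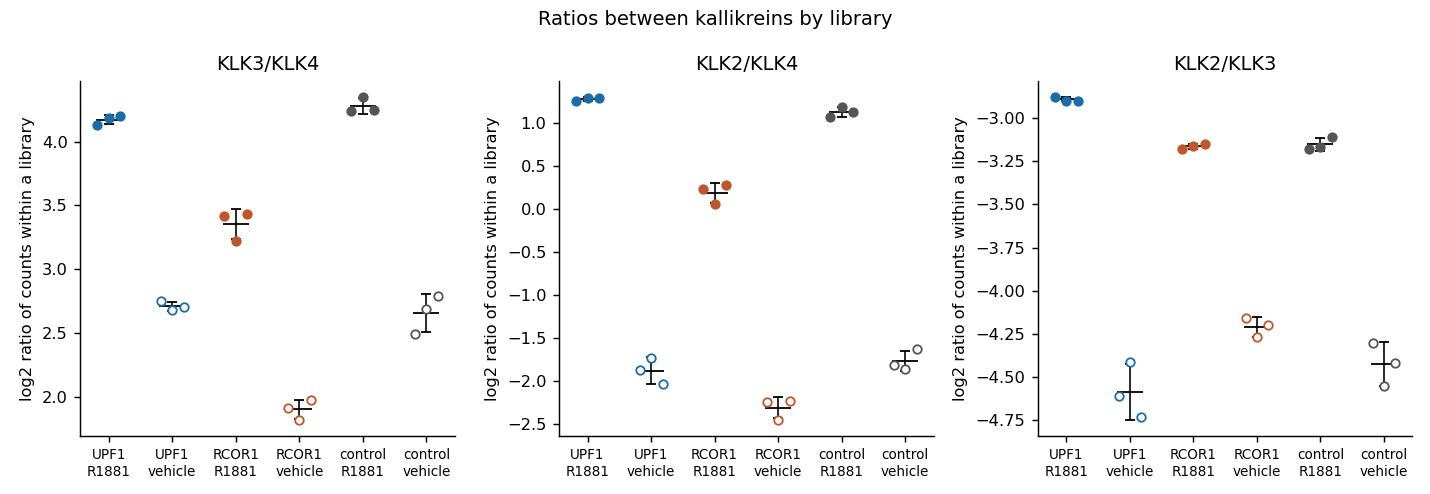
Log2 ratio of counts between 2 kallikreins within each library (points; filled R1881, open vehicle; bar, mean ± SD of 3 libraries). RCOR1 siRNA libraries lie below control libraries of the same treatment for KLK3 to KLK4 and KLK2 to KLK4, and all 3 ratios are higher in R1881.

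Of the other kallikrein genes, 11 of 12 were too low to test, with 0 to 9 counts each over all 18 libraries: KLK6 had 9 counts, KLK1 8, and KLK8, KLK9 and KLK13 none. The exception was the pseudogene KLKP1, which lies between KLK2 and KLK4. With UPF1 siRNA it had 7.72, 5.25 and 8.85 CPM in R1881 and 1.84, 2.45 and 2.38 CPM in vehicle. RCOR1 siRNA libraries had 8.65, 6.49 and 7.33 CPM in R1881 and 6.67, 5.17 and 3.69 CPM in vehicle. In control libraries it had 8.72, 9.79 and 8.67 CPM in R1881 and 3.11, 4.79 and 2.66 CPM in vehicle. R1881 raised KLKP1 by 1.71 ± 0.259 on the log2 scale with UPF1 siRNA (edgeR adjusted p = 7.1e-05) and 1.35 ± 0.243 with control siRNA (0.00033), and 0.52 ± 0.235 with RCOR1 siRNA was not called (0.11).

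Around the cluster, within 300 kb of the interval from KLK1 to KLK14, the table held 70 genes, of which 28 had 0 counts and 13 could be tested. Apart from kallikreins and KLKP1 these were 8 genes. In R1881 over vehicle, 3 were called higher and 1 lower with UPF1 siRNA, 1 higher and 2 lower with RCOR1 siRNA, and 1 higher and 1 lower with control siRNA. Over all tested genes, 21.6%, 16.3% and 20.1% were called higher and 20%, 14.9% and 17.6% lower with UPF1, RCOR1 and control siRNA. C19orf48 rose by 2.67, 1.5 and 1.83 on the log2 scale with UPF1, RCOR1 and control siRNA (adjusted p = 4.9e-10, 3.3e-07 and 2.6e-08). With RCOR1 siRNA over control siRNA in vehicle, 1 of the 8 was called higher, VSIG10L (0.58, adjusted p = 0.005), where 5.31% of all genes were. C19orf81 had 1 (0.35), at 11 to 14 counts per library with RCOR1 siRNA and 1 to 9 with control siRNA, and C19orf48 had 0.09 (0.77), where KLK4 had 1.11.

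**Figure D5:**
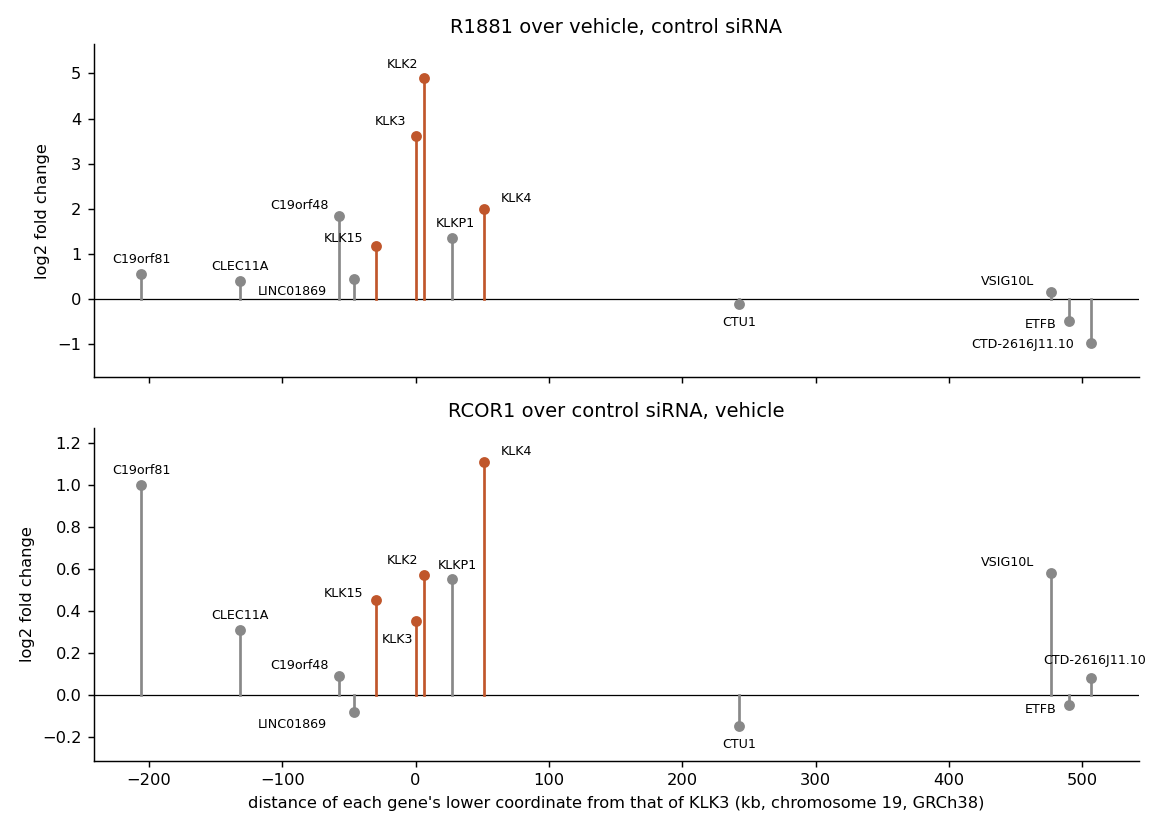
Log2 fold change of the 13 tested genes around the kallikrein cluster by position on chromosome 19, for R1881 over vehicle with control siRNA (top) and RCOR1 over control siRNA in vehicle (bottom); the 4 members are coloured. KLK2 and KLK3 lead in the top panel at 4.89 and 3.61, and KLK4 in the bottom panel at 1.11, followed by C19orf81 at 1, which was not called.

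Other genes of the kallikrein network were counted from fixed lists, beside medians over all tested genes of -0.01 (UPF1 siRNA), 0.02 (RCOR1 siRNA) and 0.02 (control siRNA) for R1881 over vehicle. Of all genes 21.6%, 16.3% and 20.1% were called higher. Of 7 surface proteases that activate or accompany kallikreins, 5 were tested, and R1881 raised 2, 2 and 4 of them and lowered none with UPF1, RCOR1 and control siRNA (medians 0.35, 0.15 and 0.49). TMPRSS2, an androgen-induced serine protease, averaged 1440 ± 65.4 CPM with RCOR1 siRNA and 2330 ± 96.4 CPM with control siRNA in R1881, and 232 ± 10.6 and 214 ± 21.5 CPM in vehicle. Its R1881 response was smaller with RCOR1 siRNA (interaction -0.82, edgeR adjusted p = 0.0008), and it fell by 0.7 in R1881 (1.2e-05). With UPF1 siRNA, TMPRSS2 was called lower too, at -0.43 in R1881 (edgeR adjusted p = 0.00027) and -0.21 in vehicle (0.031). Its UPF1 interaction of -0.22 (0.24) was not called. The hepsin gene HPN, a surface protease of prostate cancer cells, fell with UPF1 siRNA by 0.72 in R1881 (0.0004) and 0.54 in vehicle (0.0032).

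Among 12 kallikrein inhibitors 5 were tested, and SERPINA3 and A2M, which bind prostate-specific antigen in blood, had 18 and 31 counts over all libraries. R1881 raised 2, 1 and 1 inhibitors and lowered 1 in each case with UPF1, RCOR1 and control siRNA (medians 0.08, 0 and 0.09). The one lowered was SERPINI1, a serine protease inhibitor known from neurons, by 2.92 with control siRNA (edgeR adjusted p = 1.4e-08). RCOR1 siRNA raised SERPINI1 by 1.04 in R1881 (0.0059) and 0.83 in vehicle (0.0053). Of 18 substrates and receptors, 8 were tested, 2, 2 and 2 of them higher and 4, 5 and 5 lower in R1881 with UPF1, RCOR1 and control siRNA (medians -0.41, -0.55 and -0.53), beside 20%, 14.9% and 17.6% of all genes called lower. SEMG1 and SEMG2, the semenogelins, had 4 and 1 counts in all. F2RL1, the protease-activated receptor that KLK2 and KLK4 can cleave, rose by 1.76, 1.13 and 1.63 (edgeR adjusted p = 9.6e-10, 2.4e-07 and 2e-09), and fell by 0.67 with RCOR1 siRNA in R1881 (0.00029).

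All 16 listed regulators of kallikrein transcription were tested, and R1881 raised 5, 3 and 5 and lowered 8, 5 and 6 with UPF1, RCOR1 and control siRNA (medians -0.11, -0.12 and -0.19), beside 21.6%, 16.3% and 20.1% of all genes called higher and 20%, 14.9% and 17.6% lower. SPDEF, an ETS factor of luminal cells, rose by 2.55, 2.25 and 2.57 with R1881 (edgeR adjusted p = 5e-10, 2.1e-09 and 3.4e-10). It fell with RCOR1 siRNA by 0.74 in R1881 (edgeR adjusted p = 0.0012) and 0.42 in vehicle (0.046). SPDEF also averaged lower with UPF1 siRNA, at 201 ± 24.2 CPM in R1881 and 34.2 ± 2.48 in vehicle. Control siRNA had 316 ± 38.5 and 53.3 ± 9.9 CPM. Over control siRNA, UPF1 siRNA lowered 6 regulators and raised 1 in R1881, and lowered 7 and raised 1 in vehicle. RCOR1 siRNA lowered 3 in R1881 and 2 in vehicle and raised 0. Of all genes, 15.7% and 16% were called lower with UPF1 siRNA, and 7.33% and 6.21% with RCOR1 siRNA.

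Likeness of pattern was measured as the root mean square difference in log2 CPM over the 18 libraries, after each gene's mean was subtracted. It is a description, since the libraries share their treatments. KLK3 lay nearest to SLC45A3 (0.222) and TMPRSS2 (0.228), both androgen-induced prostate genes, with a median of 1.77 over all tested genes. The RCOR1 siRNA interaction was also called lower for SLC45A3 (-0.66, edgeR adjusted p = 0.024), TMPRSS2 (-0.82, 0.0008) and PMEPA1 (-0.45, 0.023). SDK1 (-0.59, 0.26) and SH3D21 (-0.3, 0.66) were not called. These are the 5 genes nearest to KLK3, picked for likeness in the same libraries. KLK2 lay nearest to the co-chaperone gene FKBP5 (0.469; median 2.433), and was farther from KLK3 (0.682). FKBP5 was close to KLK2 in the size of its R1881 response, 4.78, 4.98 and 5.21 with UPF1, RCOR1 and control siRNA, where KLK2 had 5.58, 3.82 and 4.89. Its siRNA values differed from those of KLK2: with UPF1 siRNA in R1881 it fell by 0.64 (edgeR adjusted p = 0.00036), where KLK2 had 0.17, and its interactions were -0.43 (0.16) with UPF1 siRNA and -0.22 (0.7) with RCOR1 siRNA, where KLK2 had 0.69 and -1.08. KLK4 lay nearest to IRS2 (0.136; median 1.13), the insulin receptor substrate gene, and its next gene was C9orf152 (0.312). IRS2 rose by 2.42, 1.47 and 1.84 with R1881 under UPF1, RCOR1 and control siRNA, where KLK4 had 2.43, 1.3 and 1.99. With RCOR1 siRNA, IRS2 rose by 0.57 in R1881 (edgeR adjusted p = 0.0079) and 0.94 in vehicle (0.00039), where KLK4 had 0.43 and 1.11. KLK15, at its low counts, lay nearest to RP4-734G22.3 (0.241; median 0.749). Between members the distances ran from 0.538 for KLK4 and KLK15 to 1.808 for KLK2 and KLK15.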

How the data were processed

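Raw counts per gene were deposited for 18 libraries, with no normalization; the authors converted reads with bcl2fastq 2.20, used STAR 2.7.9a with GRCh38.p7 for alignment and featureCounts (Subread 1.6.4) for counting, per the submitters' processing notes. Which annotation release, strand setting and filters they chose is not given in the sources used here. Per the labels' protocols, replicates are biological triplicates. Groups came from the labelled siRNA and treatment; replicate numbers follow sample order and pair nothing.

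In R 4.3.3 with edgeR 4.0.16, filterByExpr kept 15390 of 60649 genes, libraries were scaled by TMM, and all 18 libraries entered 1 fit with a mean for each group (common dispersion 0.0239). Contrasts used the quasi-likelihood F test with Benjamini-Hochberg adjustment, called below 0.05. The SE is the absolute log2 fold change over the square root of F, and 95% intervals are 1.96 SE. The fit was tested on simulated data. Log2 ratios used a pseudocount of 0.5. Alternatives were other scalings, no filter, DESeq2 1.42.0, only the groups compared, and libraries left out. RPKM used GENCODE 29 principal transcripts, and positions and promoters came from GENCODE 29 and RefSeq. Depth was 10299607 to 17338235 counts per library; SE cover counting error and library spread.

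The members and gene lists were chosen with earlier results of these data known. Genes named are the members, listed genes called in a contrast or most abundant, and the 5 tested genes nearest in pattern to each member. Some listed genes are not reported here by name.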

Additional observations from a re-analysis of the deposited data

Results flagged for a closer look

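The R1881 response differed between siRNAs in 3 cases by a test of the difference itself. KLK2 responded more with UPF1 siRNA than with control siRNA (log2 difference 0.69, edgeR adjusted p = 0.015). KLK2 responded less with RCOR1 siRNA than with control siRNA (log2 difference -1.08, edgeR adjusted p = 0.00099), and so did KLK3 (log2 difference -0.85, edgeR adjusted p = 0.011). Of all tested genes, 2.72% were called for UPF1 siRNA and 0.767% for RCOR1 siRNA. Among the 12 fits that left out 1 library, the KLK3 call was lost in 4. The KLK2 call with UPF1 siRNA was lost in 1 of 12, and that with RCOR1 siRNA in none. With 3 libraries in each group, single members' values were not tested for outlying libraries.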

How the results depend on the processing

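No paired analysis was possible because the labels give no replicate numbers. Of 870 recomputed values, 778 kept their direction and side of the threshold (or, for counts of genes, stayed within 1.5 times), among them 424 of 456 for the kallikreins and 273 of 300 for their ratios; the causes of the changes were not tested. With DESeq2 size factors, the DESeq2 Wald test, library size alone or only the groups compared, KLK3 with RCOR1 siRNA in vehicle was 0.35, 0.35, 0.39 and 0.37 and no longer called. Library size alone, which moved the median of all genes to -0.22 for R1881 with control siRNA, also gave uncalled values of -0.41 for KLK3 with RCOR1 siRNA in R1881 and -0.79 for its interaction, and turned KLK3 with UPF1 siRNA in R1881 to 0.03 (not called either way). With only the groups compared, KLK4 with RCOR1 siRNA in R1881 was 0.46 and the KLK3 RCOR1 interaction -0.83, both uncalled. Without replicates 1 and 2 of UPF1 siRNA in R1881, KLK2 and KLK4 with UPF1 siRNA in R1881 turned to -0.02 and -0.19 (not called either way), and the KLK2 UPF1 interaction was 0.57, uncalled; the lone library left is assumed to vary like the other groups. There the log2 ratios KLK2 to KLK15 and KLK3 to KLK15 with UPF1 siRNA were -0.32 and -0.37, uncalled, and KLK4 to KLK15 became called at -0.3 with a pseudocount of 5.

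Leaving out 1 library at a time gave these ranges. With UPF1 siRNA: KLK3 -0.44 to -0.23 and KLK4 -0.54 to -0.31 in vehicle, KLK4 -0.07 to 0.12 in R1881, and KLK2 0.62 to 0.83 for the interaction. With RCOR1 siRNA: KLK3 0.28 to 0.49 in vehicle, KLK4 0.38 to 0.53 in R1881, and KLK3 -0.98 to -0.75 and KLK4 -0.8 to -0.56 for the interaction. Log2 ratios with UPF1 siRNA ran from -0.02 to 0.06 for KLK2 to KLK4, -0.34 to -0.22 for KLK2 to KLK15, -0.07 to 0 for KLK3 to KLK4, -0.42 to -0.28 for KLK3 to KLK15 and -0.4 to -0.24 for KLK4 to KLK15. With RCOR1 siRNA they ran from 0.07 to 0.13 for KLK2 to KLK3, -0.38 to -0.19 for KLK2 to KLK15, -0.46 to -0.29 for KLK3 to KLK15 and 0.38 to 0.57 for KLK4 to KLK15. The R1881 responses of all 4 members stayed called with each siRNA under every alternative.

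Counts of called genes moved more. The RCOR1 interaction had 118, against 57 with library size alone, 27 with only the groups compared and 50 to 122 with 1 library left out. The UPF1 interaction had 419, against 1320 without the filter, 177 with only the groups compared, 60 without the 2 UPF1 siRNA libraries in R1881 and 185 to 1166 with 1 left out. RCOR1 siRNA called 1772 genes in vehicle and 1907 in R1881, against 744 and 745 with only the groups compared, and 1118 to 1443 and 1092 to 1425 with 1 left out. Without the same 2 libraries, R1881 with UPF1 siRNA called 2924 in place of 6405 genes, and UPF1 siRNA in R1881 1904 in place of 5128. The 8 to 50 counts per library of KLK15 limit its precision.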
